A study of Mus musculus with 12 samples.

Results

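Embryonic day 14 (E14) heart was compared with E14 liver in a series that mapped 5-hydroxymethylcytosine (5hmC) by pull-down sequencing, and the comparison rests on the 2 libraries titled with these tissues and this age, of 12 in all. Both came from whole tissue of C57BL6/j mice, with no treatment or altered allele in the labels, and were read from 1 end at 50 bp. The labels do not say how many embryos went into a library or whether organs were pooled. The other libraries were pairs of newborn heart and liver (day 1 to 2, called P1), pairs of heart and liver of 8 weeks (called W8), both of the same strain, and embryonic stem cells, which were not used here. With 1 library per tissue at E14 there is no replicate and no test: values are described, with the counting error of the reads, and the difference between tissues cannot be told apart from a difference between these 2 libraries.

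5hmC is made from 5-methylcytosine by the Tet dioxygenases, and both marks sit mostly at CG dinucleotides. In tissues it is known to build up along the bodies of genes that are transcribed in that tissue and at active enhancers, and to be scarce at the CpG-rich start sites of most housekeeping genes. Proteins such as thymine DNA glycosylase, encoded by Tdg, remove its further oxidised forms, so 5hmC can be a stable mark and also a step on the way to unmethylated cytosine. At mid-gestation the heart is a beating organ of cardiomyocytes, endocardium, epicardium and mesenchyme, while the liver holds immature hepatocytes and is also the main site where red blood cells are formed. In whole tissue, fewer cells of a type and less 5hmC per cell cannot be told apart.

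The measurement is the FPKM of a gene body, the number of pull-down reads scaled to the length of the body and to the depth of the library. It covers exons and introns alike, and the protocol is meant to capture 5hmC-bearing DNA. Of 13581 genes, 12169 had bodies of 5000 bp or more and 12164 of these passed a filter on low values. The median body held 145 reads in E14 heart and 240 in E14 liver. The difference between tissues is given as log2 of heart over liver after adding 0.0561 FPKM to each, minus the median over all these genes, which lay 0.26 toward heart, so 0 is the median gene. A positive value therefore means more 5hmC in heart relative to the median gene. Ratios carry the same centring, have no added value, and come with a 95% counting interval that leaves out variation between animals and preparations.

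The E14 liver library stood apart from the others and this touches the whole comparison. Over 1991 bodies of 100 kb or more, its 5th and 95th percentiles were 0.199 and 0.795 FPKM, a ratio of 3.99. In E14 heart they were 0.0956 and 1.38 FPKM, a ratio of 14.4, and in the P1 and W8 libraries the ratio ran from 10.1 to 21.4. Genes poor in 5hmC were thus higher, and genes rich in it lower, in E14 liver than elsewhere. When genes were split into 5 equal groups by their mean level in the P1 libraries, the median E14 difference ran from -0.55 in the lowest group, through -0.09, 0.06 and 0.17, to 0.31 in the highest. The lowest group alone held 519 of the 754 genes that were at least 2-fold higher in liver, and the highest group held 134 of the 298 that were at least 2-fold higher in heart. Differences centred within 20 bins of P1 level, a scale chosen after this was seen, are given where they end a 2-fold call of a named gene or move a list median by over 1.5 times, and for some other lists. Whether the E14 liver pull-down enriched 5hmC less than the others was not tested, as no unenriched library was used here.

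**Figure D1:**
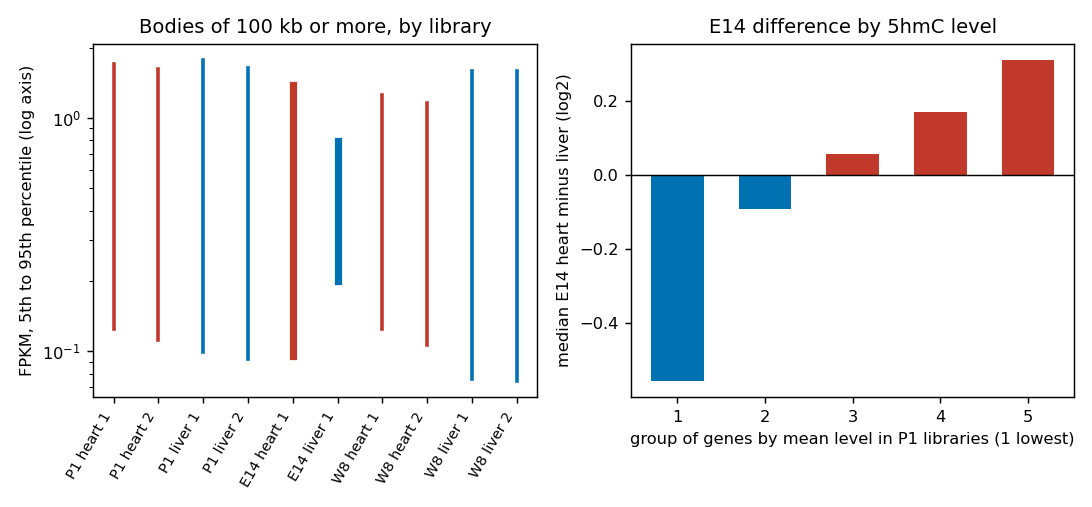
Left, the range from the 5th to the 95th percentile of 5hmC (FPKM, log axis) over gene bodies of 100 kb or more in each library, heart in red, liver in blue, the E14 libraries with thick lines; the E14 liver range is the narrowest, with a ratio of 3.99 against 14.4 in E14 heart. Right, the median E14 difference (log2, heart minus liver, bars from 0) in 5 equal groups of genes by mean level in the P1 libraries, from -0.55 in the lowest to 0.31 in the highest.

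The tissue labels were checked against the P1 libraries over the same long bodies. On log2 values, E14 heart correlated across genes at 0.94 with each P1 heart library and 0.90 with each P1 liver library, and E14 liver at 0.94 with each P1 liver library and 0.88 and 0.87 with the P1 hearts. Genes are not independent, and these values share the build and the gene models. One library among those used for comparison went against its label. W8 heart replicate 2, which held 6.03 reads in its median body, correlated at 0.88 with W8 heart replicate 1, at 0.91 and 0.92 with the P1 livers, and at 0.92 with E14 liver. W8 values are therefore given with and without it.

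Past 2-fold in either direction were 298 genes on the heart side, 2.45% of the 12164, and 754 on the liver side, 6.2%. This split depended on the scale: without centring it was 879 to 347, with both libraries brought to one distribution of values (quantile normalization) 285 to 313, and centred within level bins 210 to 386 (1.73% and 3.17%). The genes on the heart side had shorter bodies, with a median of 15447 bp against 29286 bp over all genes, and 58.1% were under 20 kb against 36.0%. Those on the liver side had a median body of 24530 bp. The P1 libraries, which the choice of genes did not use, gave a second reading. Of the 298 genes, 62.1% had both P1 hearts above both P1 livers, each library divided by its own median body, against 32.8% of all genes. Of the 754, 42.2% had both P1 hearts below both P1 livers against 26.8%. At W8 the same shares were 38.9% of the heart-side genes against 33.9% of all genes and 24.8% of the liver-side genes against 31.4%. Without W8 heart replicate 2 they were 59.7% against 45.2% and 38.3% against 47.7%. Libraries of 2 against 2 cannot give an exact permutation p below 0.05, so these are counts only.

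**Figure D2:**
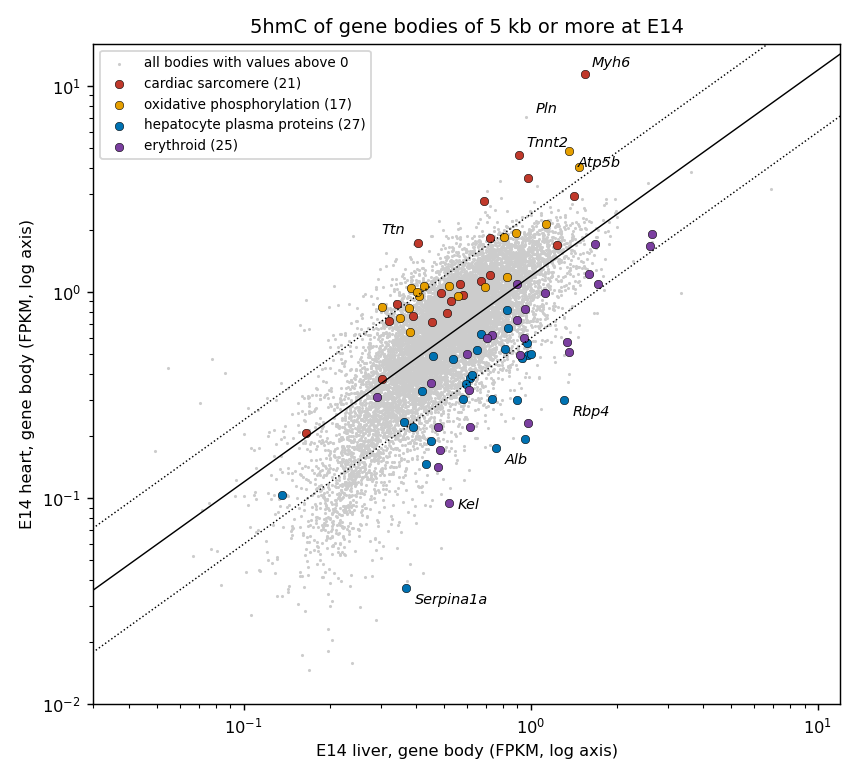
5hmC of each gene body of 5 kb or more in E14 liver (x, FPKM, log axis) and E14 heart (y, FPKM, log axis); grey points are all genes with values above 0, coloured points the members of 4 lists, the solid line the median gene and the dotted lines 2-fold above and below it. All 21 sarcomere genes and all 17 oxidative phosphorylation genes lie above the solid line, and all 27 plasma protein genes lie below it.

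The promoter window of each gene gave a second reading of the same libraries, not a replicate. It is 4000 bp long and adjoins the body; body length fell short of the RefSeq gene length by a median of 2032 bp, so the window lies on both sides of the start. It held 18.0 and 33.0 reads at the median in E14 heart and liver, and 1112 genes passed 2-fold toward heart (9.16% of 12138) and 1277 toward liver (10.5%), both larger shares than for bodies. Across 12136 genes body and window differences had a Pearson correlation of 0.31, as a description of these 2 libraries. Of the 298 heart-side genes, 71.8% had a window on the same side, and of the 754 liver-side genes 80.6%, against 50.0% of all genes.

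Examples of promoters are printed to show the bases at the start of genes whose windows differed: the 2 highest and 2 lowest among list members whose gene has a single RefSeq promoter entry that fits the length of the body. Other members, left out by that condition, differed more, such as Cps1 at -2.67 and Myl2 at 2.57. The printed stretches are 300 bases, from 250 before the start to 50 after it, in the 5′ to 3′ direction of the gene, from RefSeq on GRCm38.p6, with CG dinucleotides in capitals; the FPKM windows were made on mm9 and are wider. Cd36 (chr5:17835847-17836146, minus strand), the fatty acid transporter, and Pln (chr10:53337436-53337735, plus strand) were on the heart side, and Abcb11 (chr2:69342567-69342866, minus strand), the bile salt export pump, and Gfap (chr11:102897151-102897450, minus strand), the glial filament of the neuronal control list, on the liver side.
Cd36: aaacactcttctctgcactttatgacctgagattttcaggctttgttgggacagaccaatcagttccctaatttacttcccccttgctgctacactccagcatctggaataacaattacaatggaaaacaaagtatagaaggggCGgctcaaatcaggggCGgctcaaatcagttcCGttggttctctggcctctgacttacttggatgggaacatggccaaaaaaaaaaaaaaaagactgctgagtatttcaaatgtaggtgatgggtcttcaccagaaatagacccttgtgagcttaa
Pln: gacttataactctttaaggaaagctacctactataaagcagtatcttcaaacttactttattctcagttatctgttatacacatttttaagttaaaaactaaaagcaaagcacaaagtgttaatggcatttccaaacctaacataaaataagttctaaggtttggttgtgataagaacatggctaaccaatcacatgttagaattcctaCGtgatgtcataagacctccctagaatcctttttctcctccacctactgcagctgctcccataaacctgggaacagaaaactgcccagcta
Abcb11: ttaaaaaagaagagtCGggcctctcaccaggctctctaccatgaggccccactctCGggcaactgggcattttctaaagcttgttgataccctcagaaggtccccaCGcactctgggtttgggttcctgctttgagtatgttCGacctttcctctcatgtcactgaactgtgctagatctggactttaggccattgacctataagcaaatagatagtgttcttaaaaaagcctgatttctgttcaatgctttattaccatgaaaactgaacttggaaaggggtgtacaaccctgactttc
Gfap: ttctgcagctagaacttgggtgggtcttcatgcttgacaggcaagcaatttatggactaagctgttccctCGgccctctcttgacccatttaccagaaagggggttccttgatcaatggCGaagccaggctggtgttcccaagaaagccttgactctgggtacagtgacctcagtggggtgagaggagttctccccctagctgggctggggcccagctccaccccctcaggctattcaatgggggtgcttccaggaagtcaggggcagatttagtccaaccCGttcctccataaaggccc

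Cd36 had 1.23 FPKM in the heart window and 0.226 in the liver window, from 39 and 14 reads, a difference of 2.13, and its body 0.66. Pln had 2.28 and 0.677, a difference of 1.61, with 1 CG in the printed bases. Abcb11 had no read in heart and 24 in liver. With heart set to a floor of 3 reads, liver was 4.27 times higher, a value that leaves out the counting error of the liver reads. Gfap had 9 and 78 reads, a difference of -2.01. The 4 sequences hold 1 to 4 CG, where the median of 32851 RefSeq promoters is 7 and 94.6% hold at least 1; a count of CG is a description of these bases only. Over 4097 genes with a single matched promoter, only the group with the fewest CG stood apart in the window difference. The median was -0.30 for 0 to 5 CG (560 genes), -0.03 for 6 to 15, 0.05 for 16 to 25 and 0.01 for 26 or more. Of the 560, 34 passed 2-fold toward heart and 144 toward liver. Promoters poor in CG were thus on the liver side at E14, as bodies poor in 5hmC were.

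Genes of the cardiac sarcomere, the contractile unit of heart muscle, lay at or above the median gene in heart. Of 21 measured members all 21 had a difference above 0, where 50.0% of all genes did, and 6 passed 2-fold, against 2.45% of all genes. Their median difference was 0.63, and 0.55 within level bins. Myh6, which encodes the alpha heavy chain of cardiac myosin, the motor of the thick filament, had the largest difference of the whole list. Its body, 22687 bp at mm9 positions 55560758 to 55583444, stood at 11.5 FPKM in heart and 1.54 FPKM in liver, from 2062 and 543 reads. The ratio was 6.23 (5.66 to 6.86), and no other body of 5 kb or more had a higher level in E14 heart. Tnnt2, which encodes the troponin subunit that anchors the calcium switch to tropomyosin, had 4.64 FPKM in heart and 0.910 in liver. This was a ratio of 4.27 (3.47 to 5.24), from 345 and 133 reads.

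Ttn encodes titin, the elastic protein that spans the sarcomere and the largest protein known. Its body of 276564 bp, at mm9 positions 76542041 to 76818604, held 3811 reads in heart and 1733 in liver, so it is among the best measured genes here. It stood at 1.74 FPKM against 0.404, a ratio of 3.61 (3.41 to 3.82). Myh7, the beta myosin heavy chain that precedes the alpha form in the fetal ventricle, and Myl2, the ventricular regulatory light chain, were also past 2-fold, at differences of 1.67 and 1.57; both are named here after their values were seen. The sixth was Des, the intermediate filament of muscle, at 1.03, or 0.72 within level bins. At the other end of the list, also named after the fact, Tnnc1, the calcium-binding troponin, stood at 0.18, and Nebl and Smpx lay at 0.02 and 0.00. The group therefore ran from 0.00 to 2.60 with no member on the liver side.

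The P1 libraries gave the same order for Ttn and Myh6. Ttn had 1.78 and 1.80 FPKM in the P1 hearts and 0.307 and 0.286 in the P1 livers. For Myh6 these were 2.32 and 2.52 FPKM against 0.601 and 0.619. Both E14 levels of Myh6 were thus above every P1 value of their own tissue, and the E14 heart level was also above the W8 hearts at 3.11 and 7.83 FPKM. Over the list, the median difference was 1.07 at P1 and 1.21 at W8, or 1.51 without W8 heart replicate 2. Both P1 hearts lay above both P1 livers for 18 of the 21 genes and below them for 1, against 32.8% and 26.8% of all genes.

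Calcium handling and ion channel genes set the beat and couple it to contraction. Of 23 measured members, 17 were on the heart side and 3 past 2-fold, against 50.0% and 2.45% of all genes. The median was 0.44, and 0.63 within level bins. Pln, which encodes phospholamban, the small inhibitor of the calcium pump of the sarcoplasmic reticulum, had 7.07 FPKM in heart and 0.967 in liver, a ratio of 6.13 (4.86 to 7.75). Its promoter is among those printed above, and its window was on the same side. The body of 6314 bp overlaps Cep85l in the RefSeq annotation, so reads of the 2 genes cannot be separated there. Gja1, the connexin of gap junctions between cardiomyocytes, stood at 1.88 FPKM against 0.550, a ratio of 2.86 (2.21 to 3.73). Slc8a1, the sodium-calcium exchanger, had a long body of 261589 bp and 0.932 FPKM against 0.357, a ratio of 2.19 (2.04 to 2.34); its difference was 1.00, and 0.90 within level bins. The member farthest to the liver side was Fkbp1b, a stabiliser of the calcium release channel, at -0.98, from 17 and 59 reads.

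Pln did not keep its E14 difference at P1. The P1 hearts had 0.746 and 0.584 FPKM and the P1 livers 0.498 and 1.69, so the groups overlapped, and the centred P1 difference was -0.45. At W8 it was 1.13, and 0.52 without W8 heart replicate 2. Slc8a1 was apart at every age, with P1 hearts at 1.49 and 1.5 FPKM against 0.525 and 0.431 in the P1 livers. The list as a whole had a median of 1.11 at P1. Both P1 hearts lay above both P1 livers for 21 of its 23 genes, against 32.8% of all genes.

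Cardiac transcription factors, which specify and pattern the heart, had a median of 0.63 over 19 genes. Of these, 16 were on the heart side and 4 past 2-fold, against 50.0% and 2.45% of all genes. Tbx2 and Tbx3 are T-box repressors that keep chamber genes off in the atrioventricular canal and conduction regions. Tbx2 stood at 1.18 FPKM in heart and 0.383 in liver, a ratio of 2.58 (1.74 to 3.84), and Tbx3 at 1.73 against 0.629, a ratio of 2.30 (1.81 to 2.95). Tead1, the DNA-binding partner of the Hippo pathway in heart muscle, had 1.41 FPKM against 0.526, a ratio of 2.25 (2.12 to 2.39). No factor of this list passed 2-fold once differences were centred within level bins. Gata4 and Gata6, zinc-finger factors that both the heart and the liver use, differed from each other. Gata6 stood at 1.01 FPKM in heart and 0.521 in liver, a difference of 0.63, while Gata4 stood at 0.697 and 0.642, a difference of -0.15 that became 0.11 without centring. At P1 both had both hearts above both livers on the scale of each library's median.

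Signals of heart development were less clearly apart, with 14 of 20 on the heart side, a median of 0.33, none past 2-fold toward heart and 1 toward liver. That gene was Nrg1, the growth factor that endocardium sends to the myocardium, at 0.206 FPKM in heart and 0.388 in liver, a ratio of 2.25 toward liver (1.98 to 2.56). Its difference of -1.02 was within 2-fold on the other scales, at -0.59 within level bins, -0.63 after quantile normalization and -0.76 without centring. Its promoter window pointed the other way, at 1.45, and so did both P1 hearts, at 0.444 and 0.380 FPKM against 0.316 and 0.366, once scaled by each library's median. Bmp4, a signal of the outflow tract, stood at 0.99 toward heart. It was on the liver side at P1, at -0.75.

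Other cell types of the heart were represented to different degrees. Endothelial and endocardial genes had a median of 0.51, with 14 of 18 on the heart side and 2 past 2-fold (2.45% of all genes). These were Robo4, an endothelial guidance receptor, with a ratio of 3.49 (2.5 to 4.94), and Plvap, the diaphragm protein of fenestrated vessels, with 2.99 (2.14 to 4.27). Nfatc1, the factor of the endocardium and valves, followed at a difference of 0.87. Among 13 smooth muscle genes, 3 passed 2-fold toward heart (2.45% of all genes): Acta2 at 1.61, Smtn at 1.49 and Des at 1.03. The median of that list was 0.22, with 5 of the 13 on the liver side, among them Myh11, the smooth muscle myosin, at -0.63. Epicardial and fibroblast genes had a median of 0.14, and 0.38 within level bins, with 0 of 16 past 2-fold; their highest were Dpt at 0.89, Wt1 at 0.82 and Tbx18 at 0.73, the last pair being transcription factors of the epicardium. At P1 both hearts lay above both livers for 10 of these 16 genes, against 32.8% of all genes.

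**Figure D3:**
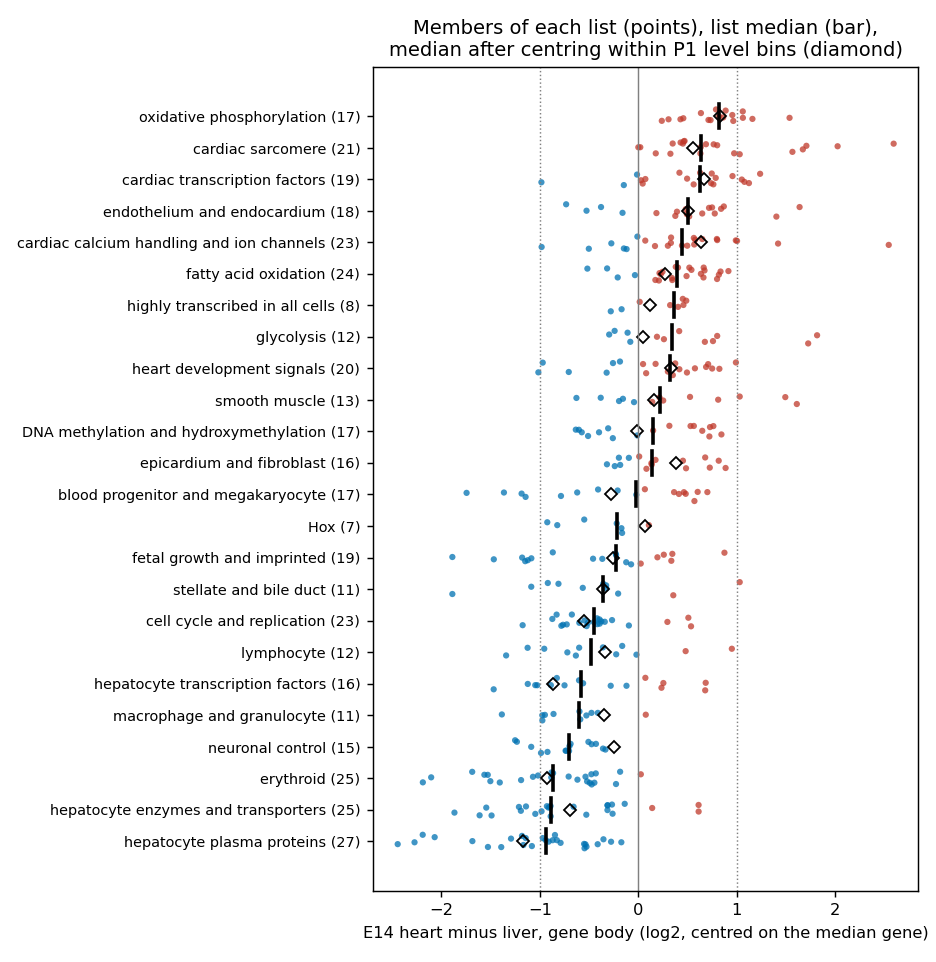
Each point is 1 measured member of a gene list, placed by its E14 difference (log2, heart minus liver, centred on the median gene; red above 0, blue below); the number of members is in brackets, bars are list medians, diamonds are medians after centring within bins of P1 level, and dotted lines mark 2-fold. The bars run from 0.82 for oxidative phosphorylation to -0.94 for hepatocyte plasma proteins, and the diamond of the neuronal control list lies at -0.24 where its bar is at -0.70.

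Genes of plasma proteins, which hepatocytes make and secrete, were all on the liver side. Of 27 measured, 27 were below 0 and 12 passed 2-fold, against 6.2% of all genes on that side; their median was -0.94, and -1.17 within level bins. Serpina1a, an alpha-1 antitrypsin, had 0.0368 FPKM in heart and 0.367 in liver, a ratio of 11.9 toward liver (3.91 to 59.8). The wide interval reflects 3 reads in heart and 59 in liver, and Serpina1a belongs to a family of near-identical copies between which reads can be split, so it is the least certain of the group. Fgg, a chain of fibrinogen, had 0.193 FPKM against 0.952, a ratio of 5.90 (2.83 to 14.1). Rbp4, the carrier of retinol, had 0.3 against 1.31, a ratio of 5.20 (3.08 to 9.32). These 3 genes had lower E14 heart levels than either P1 heart library.

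Albumin and alpha-fetoprotein are the classic pair of liver differentiation, the second dominating in the fetus. Alb, at mm9 positions 90891915 to 90905629, had 0.175 FPKM in heart and 0.757 in liver, from 19 and 161 reads, a ratio of 5.16 toward liver (3.20 to 8.80). Afp had 0.304 against 0.736, a ratio of 2.89 (2.04 to 4.2). The order of the pair was the opposite at P1, where Alb differed by -0.79 and Afp by -1.58. In W8 liver, Alb stood at 0.279 and 0.324 FPKM, below the E14 and P1 livers and level with W8 heart replicate 1 at 0.320; W8 heart replicate 2 stood at 1.57. The W8 difference of Alb without that replicate was 0.41. The list as a whole stayed on the liver side at P1 and W8, with medians of -1.21 and -1.21, or -1.58 without W8 heart replicate 2.

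Enzymes and transporters of hepatocytes had 22 of 25 members on the liver side and 8 past 2-fold, against 50.0% and 6.2% of all genes. The list median was -0.89, and -0.44 after quantile normalization. Cyp2e1, a cytochrome P450 that oxidises ethanol, had 0.124 FPKM in heart and 0.494 in liver, a ratio of 4.76 (2.40 to 10.9). G6pc, the phosphatase that lets the liver release glucose, had 0.286 against 0.780, a ratio of 3.26 (1.97 to 5.60). Cps1, which feeds ammonia into the urea cycle, was better counted, with 129 and 505 reads over 106234 bp, and reached 2.38 (1.96 to 2.92); its difference of -1.05 was -0.93 within level bins and -0.44 after quantile normalization. The members on the heart side were Slc10a1 and Arg1, both at 0.61, and Cyp27a1 at 0.14; these were singled out after their values were seen. The list median moved from -0.89 at E14 to -1.07 at P1 and -1.60 at W8. In the W8 livers Cps1 stood at 1.58 and 1.75 FPKM, several times its E14 liver level of 0.306.

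Hepatocyte transcription factors had a median of -0.58 over 16 genes, with 11 on the liver side and 4 past 2-fold (6.2% of all genes). Their median was -0.87 within level bins and -0.79 after quantile normalization, farther out than the enzymes on both of those scales. Onecut2 and Onecut1, homeobox factors of early liver and bile duct, had ratios of 3.24 (2.57 to 4.10) and 2.41 (1.75 to 3.36) toward liver. Nr1i2, the xenobiotic receptor PXR, had 2.21 (1.80 to 2.74). Hnf4a, the central regulator of hepatocyte identity, had 0.457 FPKM in heart and 0.666 in liver, a ratio of 1.74 (1.49 to 2.05), short of 2-fold. In the P1 livers Hnf4a stood at 1.88 and 1.61 FPKM and in the P1 hearts at 0.642 and 0.273, so its P1 difference of -1.59 was larger. Onecut1 likewise went from -1.12 at E14 to -2.14 at P1.

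Erythroid genes were among the lists farthest to the liver side at E14, the age at which the liver makes red cells. Of 25 measured, 24 were below 0 and 10 past 2-fold, against 50.0% and 6.2% of all genes. The list median was -0.87, and -0.93 within level bins. Kel, the Kell blood group protein, had 0.0943 FPKM in heart and 0.518 in liver, a ratio of 6.56 (3.63 to 13.0). Hemgn, a nuclear protein of haematopoietic cells, had 0.231 against 0.978, a ratio of 5.06 (3.5 to 7.56), and Rhag, the ammonia channel of the Rhesus complex, had a ratio of 4.02 (2.75 to 6.09). Gata1, the master factor of the lineage, and Alas2, the first enzyme of haem synthesis in red cells, are named after their values were seen, at -1.53 and -1.5. No erythroid member was at 0 in either library, and the summed level was 17.3 FPKM in heart and 25.6 in liver. The globin genes were not analysed here.

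The erythroid list lay on different sides at different ages. Its median was -0.49 at P1 and 0.62 at W8, or 0.08 without W8 heart replicate 2. At P1, 14 of 25 genes had both hearts below both livers, against 26.8% of all genes. Kel stood at 0.655 and 0.579 FPKM in the P1 livers and at 0.105 and 0.108 in the W8 livers. For Hemgn these were 1.20 and 1.17 in the P1 livers and 0.347 and 0.324 in the W8 livers. Rhag stayed on the liver side at W8, at 0.370 and 0.317 FPKM in liver against 0.204 and 0.109 in heart. P1 libraries were read from both ends and E14 and W8 libraries from 1, so read format cannot be told apart from age between P1 and the others.

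Progenitors of blood gave a mixed picture at E14. On the liver side were 9 of 17 genes, with 4 past 2-fold (6.2% of all genes). The list median of -0.02 became 0.24 without centring, -0.28 within level bins and -0.32 after quantile normalization. Ikzf1, the lymphoid regulator Ikaros, stood at 0.195 FPKM in heart and 0.649 in liver, a ratio of 3.97 (3.30 to 4.81) that rests on 131 and 854 reads. Myb, needed for definitive blood formation, had a ratio of 2.82 (2.22 to 3.60), and Flt3, a receptor of lymphoid-primed progenitors, 2.48 (2.08 to 2.98). At W8 the livers held little 5hmC at Ikzf1, with 0.121 and 0.144 FPKM. Macrophage and granulocyte genes had a median of -0.60 with 10 of 11 on the liver side, with Emr1, the F4/80 antigen, at -1.39. Emr1 was within 2-fold at -0.39 within level bins and -0.38 after quantile normalization. Lymphocyte genes had a median of -0.48 over 12 genes.

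Neuronal genes, which neither tissue is known to use, served as a control. All 15 measured members lay on the liver side, with a median of -0.70 and 3 past 2-fold (6.2% of all genes). The 3 were Slc17a6, a glutamate transporter, at -1.25, Gad2, which makes GABA, at -1.23, and Grin1, a glutamate receptor subunit, at -1.09. Within level bins the median was -0.24, and Slc17a6, Gad2 and Grin1 stood at -0.26, -0.24 and -0.89, all within 2-fold. The levels themselves were low, with medians of 0.266 FPKM in heart and 0.322 in liver. The macrophage and lymphocyte medians of -0.60 and -0.48 were thus no farther to the liver side than this control list. Within level bins they came to -0.35 and -0.34, against -0.24 for the control. Plasma protein, erythroid and hepatocyte enzyme lists stood farther out than the control on both scales, at -1.17, -0.93 and -0.69 within level bins.

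Imprinted and fetal growth genes had 6 of 19 past 2-fold toward liver and none toward heart, against 6.2% and 2.45% of all genes. The list median of -0.23 became 0.03 without centring. Dlk1, a Notch-like ligand that marks fetal hepatoblasts, had 0.400 FPKM in heart and 1.36 in liver, a ratio of 4.06 (2.69 to 6.30). Meg3, the maternally expressed RNA gene of the same imprinted domain, had 0.335 against 0.849, a ratio of 3.03 (2.37 to 3.94); its body overlaps Rtl1. Peg10, a retrotransposon-derived imprinted gene, had 0.212 against 0.453. Dlk1 and Meg3 stayed on the liver side at P1 and were on the heart side at W8, where the livers had 0.384 and 0.377 FPKM for Dlk1.

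Energy metabolism was the other block on the heart side. Of 17 measured genes of oxidative phosphorylation, 17 were above 0 and 4 passed 2-fold, against 50.0% and 2.45% of all genes. The median of 0.82 was the highest of all lists and was 0.83 within level bins. Atp5b, the catalytic beta subunit of ATP synthase, had 4.85 FPKM in heart and 1.36 in liver, a ratio of 2.99 (2.35 to 3.82). Atp5a1, the alpha subunit, had 4.03 against 1.47, a ratio of 2.29 (1.86 to 2.80), and its body overlaps Haus1; its difference of 1.16 was 0.85 within level bins. Ndufa10, of complex I, had 0.842 against 0.304, a ratio of 2.32 (1.88 to 2.87). Genes of fatty acid oxidation, the main fuel pathway of the adult heart but one that the fetal heart uses little, had 20 of 24 on the heart side, a median of 0.39 and none past 2-fold. Among glycolytic and creatine kinase genes, Ckm, the muscle creatine kinase, and Ldhb, the lactate dehydrogenase subunit typical of heart, were past 2-fold, with ratios of 3.72 (2.94 to 4.75) and 3.66 (2.86 to 4.70). The median of those 12 genes was 0.34, and 0.05 within level bins.

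The metabolic lists did not keep these positions at the other ages. Oxidative phosphorylation had a median of 0.30 at P1 and -0.35 at W8, where 1 of 17 genes had both hearts above both livers and 8 had both below (33.9% and 31.4% of all genes). Atp5b stood at 2.61 and 1.26 FPKM in the P1 hearts and 2.25 and 2.42 in the P1 livers, so the groups overlapped. For Atp5a1 the P1 hearts, at 2.09 and 2.32, lay below the P1 livers, at 3.96 and 3.19. Fatty acid oxidation had a median of -0.27 at P1 and -0.81 at W8. Ckm and Ldhb were on the heart side at all 3 ages.

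**Figure D4:**
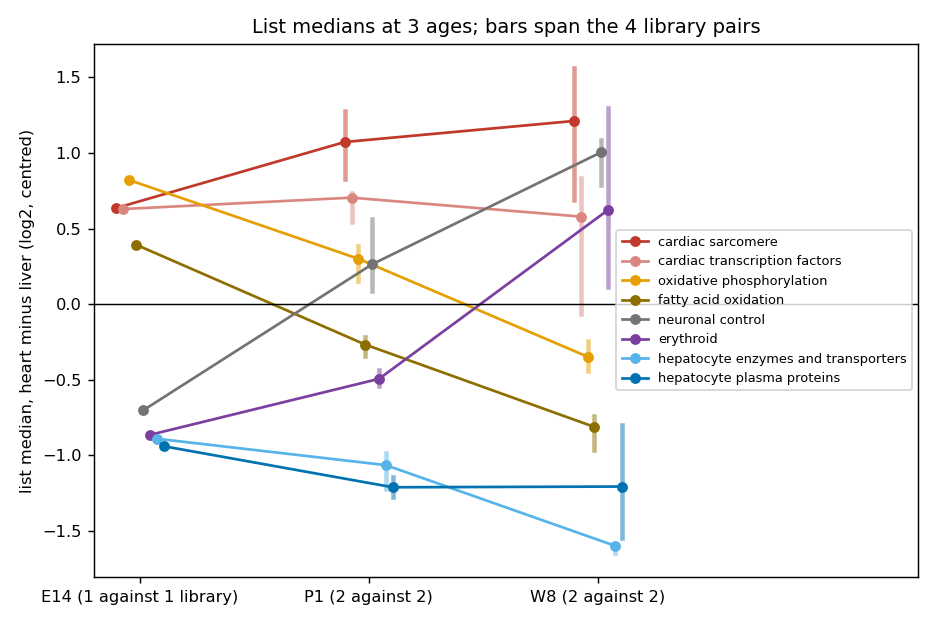
Median difference of 8 lists (log2, heart minus liver, each age centred on its own median gene) at E14, P1 and W8; bars at P1 and W8 span the 4 pairings of a heart with a liver library, and E14 has 1 pairing and so no bar. The points of the sarcomere and cardiac transcription factor lists are at or above 0.58 and those of both hepatocyte lists at or below -0.89, though the W8 bar of the cardiac factors reaches down to -0.07 and that of plasma proteins up to -0.80; the points of erythroid and neuronal lists go from below 0 at E14 to above 0 at W8 and both metabolic lists from above 0 to below it.

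The genes that differed most over the whole table, among those whose promoter window lay on the same side and whose higher library held at least 50 reads, included several outside the lists. On the heart side Slc35e4, a member of the solute carriers, had 1.87 FPKM against 0.241, a ratio of 6.51 (4.03 to 11.1). Pxdn, the peroxidase that cross-links collagen IV, had 1.75 against 0.408 over 77623 bp, a ratio of 3.59 (3.22 to 4.00), and Serpinh1, the collagen chaperone, 3.10 against 0.706, a ratio of 3.68 (2.73 to 5.04). Ankrd1, a stress-responsive repeat protein of cardiomyocytes, and Gas6, a ligand of the Axl receptor, stood at 1.64 and 1.68. The window differences were near 0 for Slc35e4 (0.03), Gas6 (0.06) and Serpinh1 (0.12), and larger for Ankrd1 (0.61) and Pxdn (1.59). On the liver side Ugt2b36, a glucuronosyltransferase from a family of near-identical genes, had 0.0257 against 0.290, from 5 and 111 reads. Pklr, the liver and red cell pyruvate kinase, had 0.195 against 0.869, a ratio of 5.33 (3.00 to 10.3), and Gjb1, the connexin of hepatocytes, 0.123 against 0.586, a ratio of 5.71 (2.64 to 14.9). Klra8, a receptor of natural killer cells from a family of similar genes, had a ratio of 10.2 (3.28 to 50.9), from 0.0297 and 0.254 FPKM, and stood at -0.09 at P1.

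Genes that write, read and remove DNA methylation differed little between the tissues, with 0 of 17 past 2-fold and a median of 0.15, or -0.02 within level bins. Tet2, which makes 5hmC, had 0.901 FPKM in heart and 0.430 in liver, a ratio of 1.76 (1.56 to 1.98). Dnmt3a, a de novo methyltransferase, had 1.48 against 0.722, a ratio of 1.72 (1.59 to 1.87) and a difference of 0.73 that was 0.36 within level bins, and Tdg a ratio of 1.79 (1.43 to 2.26). Tet1 and Tet3 were not analysed here. Cell cycle genes had 20 of 23 on the liver side and a median of -0.45, with Ccne1 past 2-fold at -1.18. Of 7 Hox genes, 6 were on the liver side with a median of -0.22, which became 0.04 without centring and 0.07 within level bins; none passed 2-fold.

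Whether short genes transcribed at a high rate in heart held an excess was looked at by length, because reads of RNA or cDNA origin would fall in exons, which make up more of a short body. The labels' protocol includes an RNase step before DNA was precipitated. The sarcomere list differed by length: the 9 bodies under 25 kb had a median of 1.03 and the 12 longer ones 0.46. At P1 the same genes had 1.07 and 0.89, and at W8 without replicate 2 of the heart 2.04 and 1.39. On the liver side, plasma protein genes had -1.08 over 21 bodies under 25 kb and -0.68 over 6 longer ones, and erythroid genes -0.98 over 16 and -0.52 over 9. Oxidative phosphorylation genes had 0.85 over 12 shorter and 0.79 over 5 longer bodies. Over all genes the median in each bin of length lay between -0.02 and 0.10.

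Bodies under 5000 bp, left out of the counts above, gave further values. Of 1380 such genes, 169 passed 2-fold toward heart and 148 toward liver, and the median difference over all of them was 0.05. These bodies held few reads. The median was 9.91 in E14 heart and 15.0 in E14 liver over the 308 shortest, and 24.1 and 37.1 over the other 1072. The part of counting error in the numbers past 2-fold was not tested. The 11 members of the heart lists had a median of 0.90 with 3 past 2-fold. Tnni3, the cardiac inhibitory troponin, had 3.17 FPKM in heart and 0.691 in liver over 2224 bp, from 56 and 24 reads. A set of 5 genes transcribed at a high rate in every cell type had a median of 0.61, and their median level was 6.58 times that of the median body in E14 heart and 4.53 times in E14 liver. In the P1 hearts the same ratio was 4.27 and 3.30 and in the P1 livers 3.25 and 5.53. The E14 heart value lay above this range and the E14 liver value within it. The W8 hearts had 4.60 and 2.99 and the W8 livers 6.15 and 4.75, so E14 heart had the highest value of all these libraries. Among these 5 genes Eef2, a translation factor, had 5.67 FPKM in the heart library of E14 and 2.52 in that of liver. For 5 cytoplasmic ribosomal protein genes, also short and transcribed everywhere, the median difference was -0.24 and the level 2.09 times the median body in E14 heart and 2.55 times in E14 liver. Short bodies thus had larger differences in some lists of both tissues and not in others. In the sarcomere and oxidative phosphorylation lists the size of that contrast depended on the cut. The part of RNA or cDNA reads in the heart values was not tested, since exon and intron reads are not separated in these tables.

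Over the promoter window, lists of both tissues changed by different amounts. Plasma protein, enzyme and erythroid genes had medians of -0.58, -0.52 and -0.66, against -0.94, -0.89 and -0.87 in the body. Hepatocyte transcription factors came to -0.26 from -0.58 in the body. Of their 16 windows, 9 lay on the side of the body, against 58.4% over all genes. Calcium handling genes and cardiac transcription factors had 0.53 and 0.60, against 0.44 and 0.63 in the body. Sarcomere genes came to 0.13 and oxidative phosphorylation to -0.12, so these lists stood apart from the median gene in the body and not in the window. Ttn had 0.219 FPKM in the heart window and 0.514 in the liver window, a difference of -1.12 against 1.71 in the body, and Tnnt2 had 0.851 and 0.915. Myh6 kept its side, at 0.790 against 0.403. Hnf4a and Gata6 both had less in the heart window, at 0.125 against 0.774 and at 0.0951 against 0.499 FPKM, although their bodies lay on opposite sides.

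**Figure D5:**
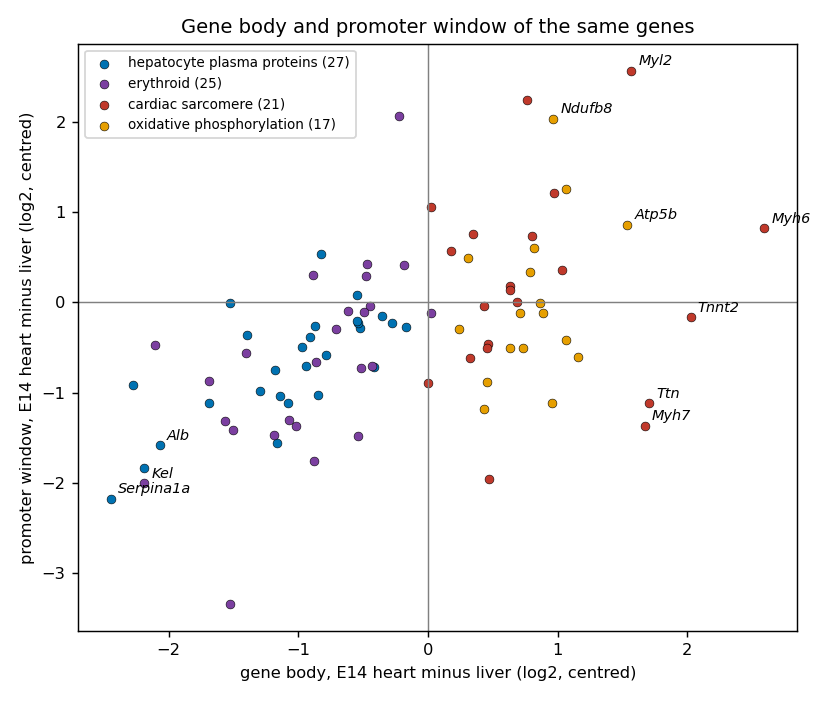
E14 difference (log2, heart minus liver, centred) in the gene body (x) and in the 4000 bp promoter window (y) for members of 4 lists. Plasma protein genes gather in the lower left, while sarcomere genes, all at or right of 0 on x, spread on y from below -1 for Ttn and Myh7 to above 2 for Myl2.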

How the data were processed

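Genomic DNA was sonicated, 5hmC was tagged with an azide glucose by T4 beta-glucosyltransferase, biotinylated and captured on streptavidin (hMe-Seal), per the labels' protocols. Bowtie2 and the mm9 build are named in the submitters' processing notes; which version was run, and how reads were counted, is not given in the sources used here. The authors deposited FPKM, per the file headers, for a promoter window and the body of each of 13581 genes, with no unenriched input used here. Of these, 23 had no coordinates, 9 a length of 0 or less and 1380 bodies under 5000 bp. The tables name no chromosome; starts count from 0 there, judged by their lengths, and have 1 added here.

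From these, log2((heart + 0.0561)/(liver + 0.0561)) was computed in Python 3.11.15 with pandas 2.3.3 and numpy 2.4.6, and centred on its median; 0.0561 FPKM is the median non-zero value divided by 10 and also the minimum mean kept (0.0548 for windows). A gene past 2-fold was called. Low genes' differences are understated by the added value. Low FPKM values were sums of whole reads (100% within 0.01 reads, with a ratio of 1.03 between 2 step sizes), so reads were recovered, approximately, for exact conditional intervals at 95% (scipy 1.17.1). They came to 3782000 in E14 heart and 5712000 in E14 liver over bodies of 5000 bp or more. The reads carry no molecular identifiers, so the intervals cover counting only. The calculation was tested on simulated data with known answers.

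Members, 25 gene lists and rules were chosen with earlier results of these data known. Genes were named if among the 3 largest differences of a list, among the 10 highest or lowest of all genes with a promoter window on the same side and at least 50 reads in the higher library, or in a fixed set (Gata4, Gata6, Hnf4a, Ttn, Myh6, Alb, Afp, Cps1 and the Tet genes). Myh7, Myl2, Tnnc1, Nebl, Smpx, Fkbp1b, Myh11, Gata1, Alas2, Slc10a1, Arg1 and Cyp27a1 were added after their values were seen. Not every gene that the rule allows is described, and a gene is not reported here. P1 and W8 libraries were compared after dividing each by its median body. Alternatives were other pseudocounts, filters, lengths and centring, the promoter window, and W8 without heart replicate 2. No column of per-sample values in the tables used was left unused (0).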

Additional observations from a re-analysis of the deposited data

Results flagged for a closer look

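Some lists lay on one side at E14 and on the other in every pairing of a heart with a liver library at another age. The E14 value comes from 1 pairing, and the difference between ages was not tested. Neuronal control genes had a median of -0.703 at E14 and 0.788 to 1.09 over the 4 pairings at W8. Stellate and bile duct genes, which mark the vitamin A storing and duct cells of the liver, had -0.356 at E14 and 0.993 to 1.40 at W8. Erythroid genes had -0.866 and then 0.112 to 1.30, and macrophage and granulocyte genes -0.598 and then 0.551 to 0.774. Cell cycle genes had -0.451 at E14 and 0.251 to 0.601 at W8.

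In the other direction, fatty acid oxidation genes had 0.392 at E14, -0.345 to -0.216 at P1 and -0.967 to -0.741 at W8. Oxidative phosphorylation genes had 0.820 at E14 and -0.444 to -0.243 at W8. Genes transcribed at a high rate in all cells had 0.364 at E14 and -0.438 to -0.300 at P1. The E14 median of these genes was 0.11 within level bins and 0.10 after quantile normalization. The narrow range of E14 liver goes with the lists of low level, and the doubted W8 heart replicate 2 is in 2 of the 4 W8 pairings of each list; their part was not tested.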

How the results depend on the processing

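The count of genes past 2-fold depended on the scale. Toward heart it was 298, and 34 with a pseudocount of the median, 879 without centring, 124 over bodies of 20000 bp or more, 451 over all bodies of 1 bp or more and 1112 over the promoter window. Toward liver it was 754, and 9 with a pseudocount of the median, 347 without centring, 313 after quantile normalization, 451 over bodies of 20000 bp or more, 1277 over the promoter window and 386 centred within level bins. In the other alternatives each count stayed within 1.5 times the main one. List medians that lay at least 0.3 from 0 kept their side except over the promoter window and over bodies of 20000 bp or more. Over the window, fatty acid oxidation came to -0.044, oxidative phosphorylation to -0.12, glycolysis to -0.22 and highly transcribed genes to -0.061. Over bodies of 20000 bp or more, the 1 remaining highly transcribed gene stood at -0.18. Some medians kept their side but not their size. After quantile normalization and within level bins, neuronal control came to -0.23 and -0.24. Glycolysis came to 0.062 and 0.047 on these scales, and highly transcribed genes to 0.10 and 0.11. Among genes named here or by the rule and past 2-fold in the body, these lay on the other side in the promoter window: Atp5a1 (-0.61), Ckm (-0.090), Ldhb (-0.16), Tnnt2 (-0.16), Ttn (-1.12), Cftr (0.16), Flt3 (0.19), Peg10 (0.12), Nrg1 (1.45) and Myh7 (-1.37). Without centring, Onecut1, Nr1i2, Flt3, Peg10, Ccne1, Cps1, Gad2, Grin1, Slc17a6, Nrg1, Cftr and Il7r came within 2-fold (-0.996 to -0.76). After quantile normalization, Onecut1 (-0.89), Nr1i2 (-0.99), Peg10 (-0.88), Tbx3 and Tead1 (each 0.90), Atp5a1 (0.85) and Des (0.77) did. So did Slc17a6 (-0.24), Emr1 (-0.38), Cftr (-0.39), Gad2 and Il7r (each -0.41), Cps1 (-0.44), Nrg1 (-0.63), Grin1 (-0.77) and Rag2 (-0.96). Within level bins Cftr, Il7r and Rag2 stood at -0.10, -0.70 and -0.71, also within 2-fold. The cause was not tested; the promoter window holds fewer reads. Without W8 heart replicate 2, the genes on the heart side at E14 and at W8 numbered 178 in place of 116, and those on the liver side 289 in place of 187. No paired analysis was possible because each E14 tissue had 1 library, and for the same reason no E14 library could be left out. Counting error over list members had a median half-width of 0.37 on the log2 scale, narrower for members with many reads and wider for those with few. For the members with wider intervals, a difference of that size lay within counting error.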
